A study of Mus musculus with 2 samples.

Results

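The genes described here are 10 members of the transforming growth factor beta (TGF-beta) system, chosen by symbol from the 24346 genes listed in each library: the isoforms Tgfb1, Tgfb2 and Tgfb3, the receptors Tgfbr1, Tgfbr2 and Tgfbr3, the latent binding protein genes Ltbp1 and Ltbp2, the inhibitor Smad7 and the induced gene Tgfbi. All 10 were listed, each with at least 1 FPKM in both libraries. FPKM is a fragment count scaled for transcript length and sequencing depth, so that levels of different genes can be set side by side. The 2 libraries hold bulk mRNA of skin wounds from C57BL/6J mice, 1 from WT pups and 1 from pups without PU.1 (PU.1_KO in the labels, PU.1−/− in the text), harvested 24 h after injury. The study describes the pups as littermates, and they were 1 day old at wounding, with full-thickness incisions of 1 cm in the back skin. The design text calls the wounds excisional. How many pups each library holds is not given in the sources used here. PU.1 is the product of Spi1, a transcription factor of blood cell development, and the deletion is carried by every cell of the animal. By the study's account such pups have no macrophages, neutrophils, mast cells or T cells, so the genotypes differ in several leukocyte types at once. With 1 library per genotype there was no spread between animals to test against, and no p-value is given. The depth, estimated from the steps of low values, was 13780000 fragments for WT and 15840000 for PU.1−/−.

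TGF-beta is secreted in a latent form, folded with its own propeptide and tied to the matrix by latent TGF-beta binding proteins, and must be released before it can act. The freed ligand brings together type II and type I receptor kinases, which phosphorylate Smad proteins that carry the signal to the nucleus. In skin wounds the pathway is known for driving fibroblasts to lay down matrix and to become myofibroblasts, and for restraining keratinocyte growth, and platelets and macrophages are known sources of the ligand.

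Among the 10 genes, Ltbp2 differed most, with 39.6% of its WT level in the PU.1−/− wound. Ltbp2 belongs to the latent binding protein family, but its protein is known not to bind latent TGF-beta. It was the only 1 of the 10 genes past 2-fold in either direction. Tgfb1, the main isoform, was 1.31 times lower in the PU.1−/− wound, while Tgfb3, all 3 receptor genes, Ltbp1 and Smad7 were each 1.28 to 1.36 times higher. Tgfb2 and Tgfbi differed by less than 1.25-fold. A lower value by at least 2-fold was found for 1057 genes, 4.34% of all listed, and for 4.45% of the 13237 genes with at least 1 FPKM in the library with the higher value. A higher value by at least 2-fold was found for 2.32% and 1.71% of the same sets. At 1.5-fold the count was again 1 lower and 0 higher, against 8.17% and 5.45% of the 13237 genes (and 7.67% and 5.79% of all listed genes). The lower fold of 1.25 was chosen after the values were seen. Past it, 6 of the 10 genes were higher and 2 were lower, against 14.0% and 16.1% of the 13237 genes (and 11.7% and 13.1% of all listed genes). On the log2 scale, with PU.1−/− divided by WT, the median of the 10 genes was 0.36 and that of the 13237 genes −0.00.

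**Figure D1:**
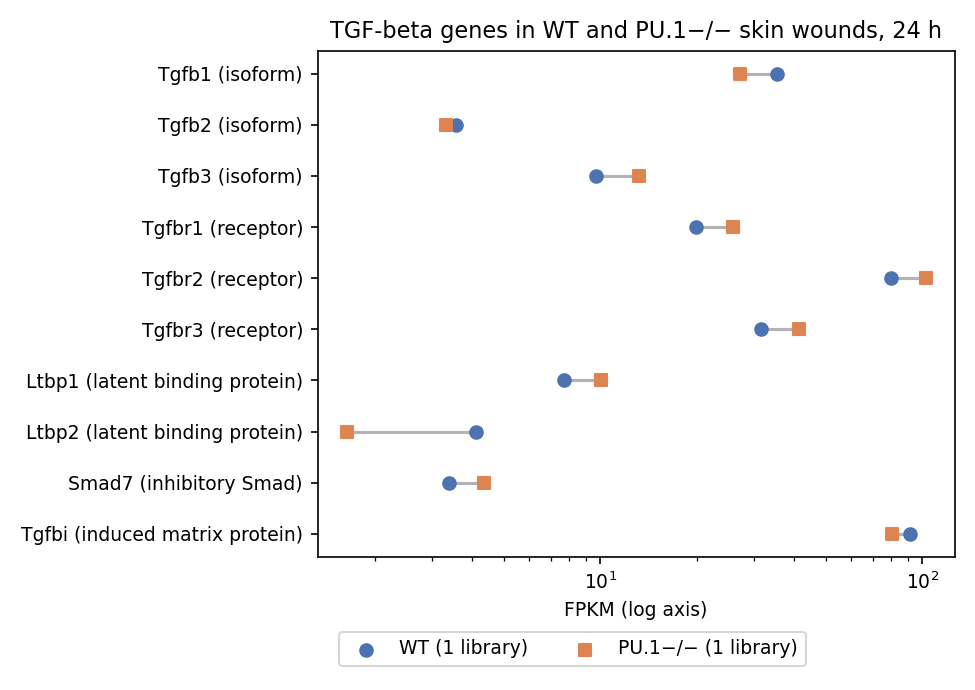
FPKM (log axis) of the 10 TGF-beta genes in the WT library (circles) and the PU.1−/− library (squares), with a line joining the 2 values of a gene. The longest line is that of Ltbp2, from 4.11 to 1.63 FPKM, and the most abundant genes are Tgfbr2 and Tgfbi.

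The start regions of 3 members are shown: Ltbp2, the gene past 2-fold, Tgfb1, the most abundant isoform, and Tgfbr2, the most abundant receptor gene. The sequences are those of RefSeq on GRCm38.p6, the assembly of mm10, written 5′ to 3′ on the strand of the gene, up to 250 bases before a transcription start and without bases of the annotated gene. Capitals mark matches on either strand to CAGAC, the core of the box bound by Smad proteins, or to GAGGAA, the core of the PU.1 box, whose reverse complements are GTCTG and TTCCTC. No match overlaps another.
Ltbp2, chr12:84876559-84876741, minus strand: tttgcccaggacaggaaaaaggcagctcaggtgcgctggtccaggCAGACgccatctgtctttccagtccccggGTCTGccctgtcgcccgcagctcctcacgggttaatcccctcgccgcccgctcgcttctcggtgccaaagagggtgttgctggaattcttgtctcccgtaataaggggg
Tgfb1, chr7:25686752-25687001, plus strand: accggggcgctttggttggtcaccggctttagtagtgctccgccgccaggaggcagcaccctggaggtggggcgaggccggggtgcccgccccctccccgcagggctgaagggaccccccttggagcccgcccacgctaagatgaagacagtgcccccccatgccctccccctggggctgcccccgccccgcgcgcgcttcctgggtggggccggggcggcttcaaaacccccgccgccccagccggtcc
Tgfbr2, chr9:116175364-116175613, minus strand: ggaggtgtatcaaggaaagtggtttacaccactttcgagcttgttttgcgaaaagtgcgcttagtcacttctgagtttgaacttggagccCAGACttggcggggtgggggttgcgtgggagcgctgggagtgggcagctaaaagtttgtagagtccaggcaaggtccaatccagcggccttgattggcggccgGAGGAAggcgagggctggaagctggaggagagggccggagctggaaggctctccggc
The 250-base Ltbp2 window runs up to a RefSeq start inside the annotated gene range, and its 67 bases nearest that start lie within the gene and are not printed. Counted from that start, CAGAC begins 205 bases before it on the gene's strand and 176 bases before it on the other strand, and the window held no GAGGAA. The Tgfb1 window held neither run of letters, while that of Tgfbr2 held CAGAC 160 bases and GAGGAA 57 bases before the start. RefSeq windows were found for 7 of the 10 genes (not for Tgfb3, Tgfbr3 and Smad7), 9 windows in all, of which 7 held CAGAC and 4 held GAGGAA. Of all 32851 windows of 250 bases, 42.2% held CAGAC and 23.3% held GAGGAA. These matches are short letter runs and describe the sequence only, not binding.

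Some values of the whole series bear on these genes. Spi1 itself stood at 35.4 FPKM in WT against 1.45 FPKM in PU.1−/−. All 10 macrophage markers were at least 2-fold lower in the PU.1−/− library, with a summed level of 826 FPKM in WT against 11.7 FPKM in PU.1−/−, and Adgre1, Tyrobp, C1qa, C1qb and Fcgr3 were listed at 0 there. Of the 9 neutrophil markers listed, 7 were lower, with Ngp, Retnlg, Ltf and Csf3r at 0. The summed level of the 9 was 7256 and 2160 FPKM, of which S100a8 alone held 6600 and 2129 FPKM. Of the 8 mast cell markers 7 were lower (742 and 14.2 FPKM), with Mcpt4, Fcer1a and Ms4a2 at 0. T cell markers were low in both (4.54 and 1.11 FPKM, 4 of 7 lower), and 6 of the 7, Cd3e, Cd3d, Cd3g, Cd2, Cd4 and Cd8a, were at 0 in the PU.1−/− library. Cd8a was at 0 in WT as well, and Cd4 and Cd2 had only 0.125 and 0.232 FPKM there. Of 8 megakaryocyte and platelet markers 1 was lower, Ppbp, at 0.217 FPKM in PU.1−/− and 332 times that in WT, while the list's median log2 ratio was −0.07 and Treml1 was at 0 in both libraries. The other summed levels were 2865 and 3397 FPKM for 10 fibroblast markers, 10500 and 12080 FPKM for 9 keratinocyte markers, 210 and 233 FPKM for 8 endothelial markers, and 8760 and 14910 FPKM for 8 skeletal muscle markers, of which the muscle genes Myh3 and Myh8 alone passed 2-fold. The libraries also differed in sex-linked genes, with Xist at 0 and 9.48 FPKM and 4 Y-linked genes at 2.16 to 38.5 FPKM in WT and at 0 in PU.1−/−, so that genotype and sex cannot be told apart.

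Tgfb1 encodes the isoform best known from wounds, platelets and leukocytes, and lies on chromosome 7 of mm10 from 25687002 to 25705077. Its level was 35.4 FPKM in WT against 27.1 FPKM in PU.1−/−. The PU.1−/− level was 76.6% of the WT level, and the 95% interval of the ratio ran from 0.698 to 0.841, on about 963 and 848 reads. These intervals are exact binomial (Clopper-Pearson) intervals on estimated reads, and they cover the counting of fragments only, not the spread between pups. In bulk tissue, fewer cells of a type and less RNA per cell cannot be told apart. The macrophage, mast cell and neutrophil markers were lower together with Tgfb1, and their part in its difference was not tested.

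Tgfb3, an isoform known for its role in palate closure, on chromosome 12 from 86056743 to 86079041, had 9.68 FPKM in WT against 13.1 FPKM in PU.1−/−. It was the member furthest above WT, at a ratio of 1.36 (interval 1.20 to 1.54), and 91.1% of the 13237 genes had a lower log2 ratio. Tgfb2, which is known for its role in the developing heart and eye, on chromosome 1 from 186622787 to 186709697, had the lowest level of the isoforms. Its values of 3.55 and 3.32 FPKM gave a ratio of 0.933, with an interval of 0.778 to 1.12 that held 1. At about 241 and 258 reads, a difference of this size was not detectable.

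The isoforms thus differed in different directions, and their sum was 48.6 FPKM in WT against 43.6 FPKM in PU.1−/−. Tgfb1 made up 72.8% of that sum in the WT wound and 62.2% in the PU.1−/− wound, a difference of −10.56 percentage points. The share of Tgfb3 was 19.9% in WT and 30.2% in PU.1−/−, and that of Tgfb2 was 7.31% and 7.61%. Tgfb1 stood 3.65 times above Tgfb3 in the WT wound and 2.06 times above it in the PU.1−/− wound. In both wounds the order of the isoform levels was Tgfb1, Tgfb3, Tgfb2.

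**Figure D2:**
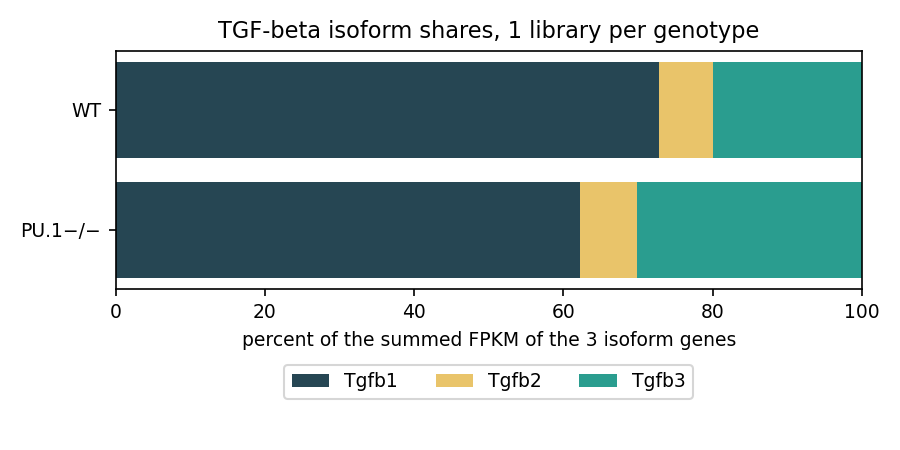
Share of each isoform gene in the summed FPKM of Tgfb1, Tgfb2 and Tgfb3, in percent, for the WT and the PU.1−/− library. The Tgfb1 part is shorter in PU.1−/− (62.2% against 72.8%) and the Tgfb3 part longer (30.2% against 19.9%).

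The receptor genes were all higher in the PU.1−/− wound, and by nearly the same factor. Tgfbr2, the type II receptor that binds the ligand first, had the highest level of the receptors, with 80.1 FPKM in WT against 102 FPKM in PU.1−/−, and lies on chromosome 9 from 116087695 to 116175363. Its ratio of 1.28 had the narrowest interval of the 6 higher members in log2 units, from 0.29 to 0.42. Tgfbr1, the type I receptor kinase that phosphorylates Smad2 and Smad3, on chromosome 4 from 47353222 to 47414926, had 19.9 and 25.8 FPKM, a ratio of 1.30 (1.15 to 1.48). Tgfbr3, or betaglycan, a co-receptor that presents ligand and is known to be needed most for TGF-beta 2, on chromosome 5 from 107106567 to 107289629, had 31.6 and 41.4 FPKM, a ratio of 1.31 (1.25 to 1.38). The 3 intervals overlapped, so that the receptor ratios could not be told apart at this depth.

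The makeup of the receptors was therefore almost the same in both wounds. Tgfbr2 held 60.9% of the receptor sum in WT and 60.4% in PU.1−/−, Tgfbr3 held 24.0% and 24.4%, and Tgfbr1 held 15.1% and 15.2%. The receptor sum was 132 FPKM in WT against 170 FPKM in PU.1−/−, and it stood 2.71 times above the isoform sum in the WT wound and 3.89 times above it in the PU.1−/− wound. Fibroblast markers, which include Dcn and Col1a1, were higher as well, with log2 ratios from 0.06 to 0.54 and a median of 0.26 over 10 genes. Col1a1, Col1a2 and Col3a1 are also on the target list given further on. The median log2 ratio was 0.75 over 8 skeletal muscle markers, 0.18 over 9 keratinocyte markers and 0.15 over 8 endothelial markers. Of the endothelial markers, 7 were above 0. The part of these cell types in the receptor values was not tested.

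The pair of latent binding protein genes among the 10 members went apart. Ltbp1, whose protein binds the latent TGF-beta complex covalently and tethers it to fibrillin and fibronectin, on chromosome 17 from 75005480 to 75392512, had 7.71 FPKM in WT against 10.03 FPKM in PU.1−/−, 1.30 times as much (1.16 to 1.46). Ltbp2, which shares this family's domain plan but is known not to bind latent TGF-beta and is instead an elastic fibre and microfibril protein, on chromosome 12 from 84783212 to 84876558, had 4.11 FPKM in WT against 1.63 FPKM in PU.1−/−. Its WT level was 2.53 times the PU.1−/− level, with an interval of 2.09 to 3.05 on about 362 and 165 reads, which lay above 2. Only 3.67% of the 13237 genes had a lower log2 ratio than Ltbp2 (−1.34). In the WT wound Ltbp1 stood 1.88 times above Ltbp2, and in the PU.1−/− wound 6.16 times. Ltbp3 and Ltbp4, of the same family but not members, were named after their values were seen. Ltbp3 had 13.7 FPKM in WT against 14.4 FPKM in PU.1−/− (ratio 1.05), and Ltbp4 had 19.3 and 24.0 FPKM (ratio 1.24). The long non-coding RNA gene D030025P21Rik overlaps Ltbp2 and was listed at 0.365 and 0.201 FPKM. Whether reads were shared between these genes was not tested. With 1 FPKM added to both libraries, the log2 ratio of Ltbp2 was −0.96, short of 2-fold. The macrophage, neutrophil and mast cell markers were lower in the same library, and their part in the Ltbp2 value was not tested.

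**Figure D3:**
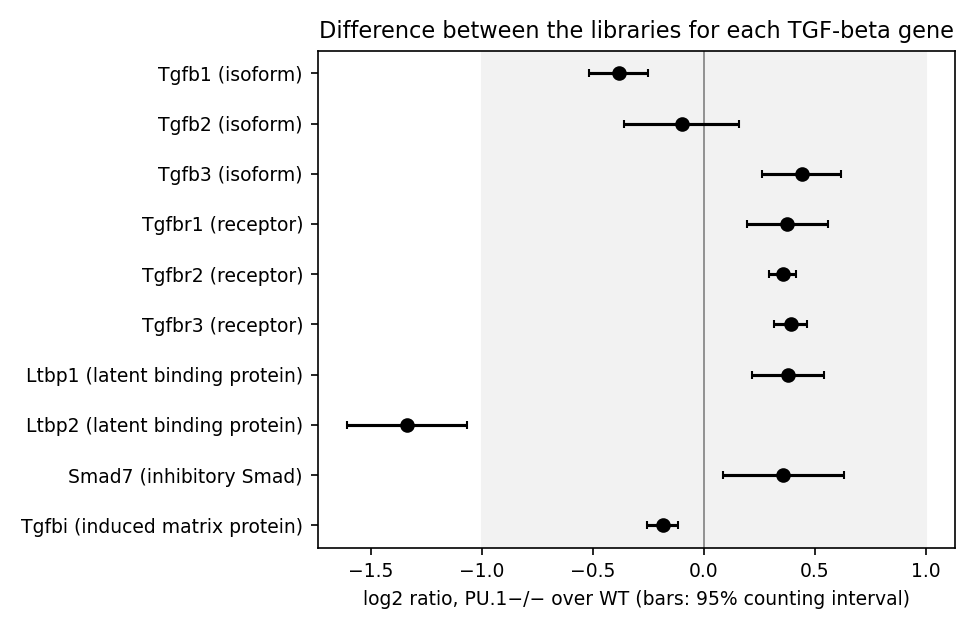
Log2 ratio of PU.1−/− over WT for each of the 10 genes, 1 library per genotype, with 95% counting intervals as bars and the range within 2-fold shaded. Ltbp2 (−1.34) stands alone left of the shaded range, 6 genes sit together between 0.36 and 0.44, and the interval of Tgfb2 crosses 0.

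Smad7 encodes the inhibitory Smad that blocks the type I receptor, and its own transcription is known to be induced by TGF-beta. It lies on chromosome 18 and had 3.39 FPKM in WT against 4.34 FPKM in PU.1−/−. The ratio of 1.28 had an interval of 1.06 to 1.55 on about 190 and 280 reads, the fewest reads in WT of any of the 10 genes.

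Tgfbi encodes a secreted matrix protein that was named for its induction by TGF-beta, and lies on chromosome 13 from 56609586 to 56639359. It was the most abundant of the 10 genes in WT, with 91.5 FPKM, and had 80.4 FPKM in PU.1−/−. The PU.1−/− level was 88.0% of the WT level (ratio interval 0.837 to 0.924). This difference was beyond counting error, though 26.1% of the 13237 genes had a lower log2 ratio. Smad7 and Tgfbi, both inducible by TGF-beta, thus differed in opposite directions between the wounds.

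Over all 10 genes, the counting interval of the ratio lay above 1 for the 6 higher genes, below 1 for Tgfb1, Ltbp2 and Tgfbi, and held 1 for Tgfb2. The 6 higher genes spanned a WT level from 3.39 FPKM (Smad7) to 80.1 FPKM (Tgfbr2), and their log2 ratios lay between 0.36 and 0.44. The lower genes lay further apart, with log2 ratios of −0.18 (Tgfbi), −0.38 (Tgfb1) and −1.34 (Ltbp2).

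**Figure D4:**
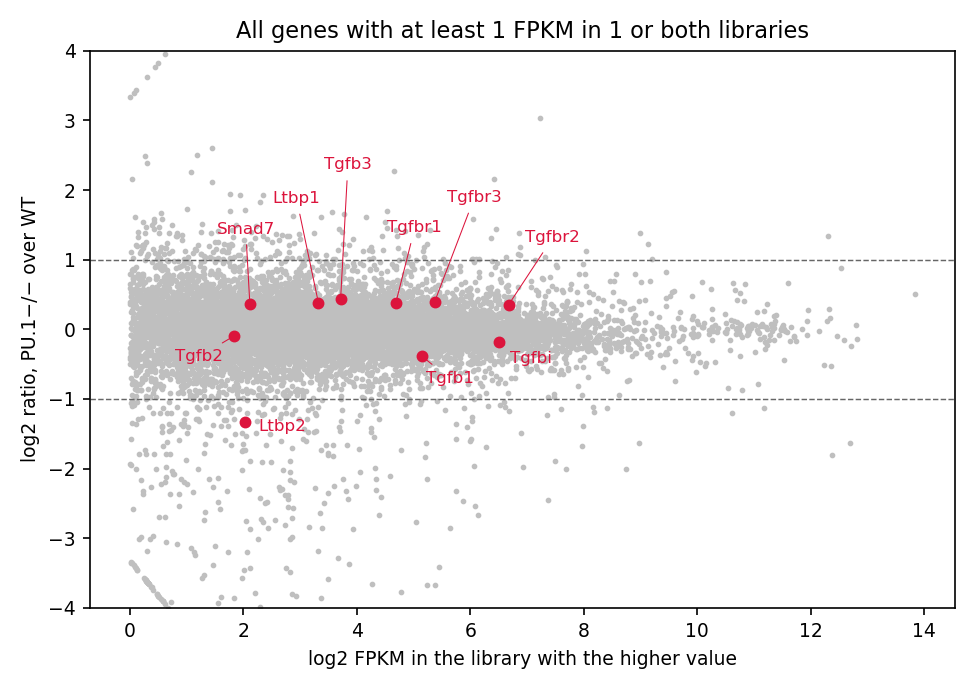
Log2 ratio of PU.1−/− over WT against log2 FPKM in the library with the higher value, for the 13237 genes that reached 1 FPKM (grey) and the 10 TGF-beta genes (red). Dashed lines mark 2-fold, 244 genes lie beyond the drawn limit of 4, and Ltbp2 is the red point past a dashed line.

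The pathway around these members was covered by 82 further genes in 5 lists. Of the 82, 2 were at least 2-fold lower and 1 at least 2-fold higher, against 4.34% and 2.32% of all listed genes. Past 1.25-fold, 8 were lower and 16 higher, against 13.1% and 11.7% of all listed genes. The median log2 ratio was 0.11, against −0.01 over the 16298 genes that reached 0.1 FPKM in at least 1 library. Among 18 genes of latency and activation, the 2 lower ones were Nrros and Thbs1. Nrros, which holds latent TGF-beta on the surface of myeloid cells, had 8.83 FPKM in WT against 3.18 FPKM in PU.1−/−, a WT over PU.1−/− ratio of 2.78 (2.23 to 3.52). Thbs1, or thrombospondin 1, a matrix protein known to free TGF-beta from its propeptide, had 252 and 96.0 FPKM, a ratio of 2.63 (2.56 to 2.69). Both were lower together with the macrophage, neutrophil and mast cell markers, whose part in these values was not tested.

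Other genes of latency and activation passed 1.25-fold in either direction, and were named after their values were seen. The protease gene Mmp9 had 34.5 and 19.3 FPKM and the fibrillin gene Fbn1 33.3 and 24.4 FPKM, while Mmp2, another protease gene, had 101 FPKM in WT against 170 FPKM in PU.1−/−, and Mmp14 had 123 and 158 FPKM. Itgb6, of the epithelial integrin that activates latent TGF-beta, had 2.04 and 2.66 FPKM, with a ratio interval of 0.981 to 1.77 that held 1. In all, 4 of the 18 were lower and 3 higher past 1.25-fold, against 13.1% and 11.7% of all listed genes. The median log2 ratio of the list was 0.03.

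None of the 7 accessory receptor genes passed 2-fold (median 0.12), and the most abundant, the endothelial co-receptor gene Eng, had 23.5 and 29.6 FPKM. Past 1.25-fold, and named after their values were seen, were Eng, the co-receptor gene Cd109 (16.0 and 20.0 FPKM) and, as the only lower one, the decoy receptor gene Bambi (4.35 and 3.45 FPKM). The 19 genes of Smad signalling and its feedback lay within −0.05 to 0.39 on the log2 scale, 17 of them above 0, with a median of 0.12. The most abundant of them, the phosphatase gene Ppm1a, had 65.7 and 68.3 FPKM. The 3 genes of that list past 1.25-fold, all higher and named after their values were seen, were Smad3, a direct carrier of the signal, at 14.4 and 18.8 FPKM, the inhibitor Smad6 at 3.26 and 4.22 FPKM, and the repressor Tgif1 at 38.7 and 49.6 FPKM. Past that fold, 11.7% of all listed genes were higher and 13.1% were lower.

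Of 20 known target genes none passed 2-fold, and their median was 0.07. Col3a1, a fibrillar collagen gene and the most abundant, had 1042 and 1110 FPKM. Past 1.25-fold, and named after their values were seen, Timp1, a protease inhibitor gene, had 436 and 261 FPKM, Fn1 (fibronectin) 62.6 and 44.7 FPKM and the smooth muscle gene Cnn1 1.70 and 1.20 FPKM, the last with a ratio interval of 0.452 to 1.08 that held 1. The cell cycle inhibitor gene Cdkn1a, at 193 and 249 FPKM, and the transcription factor gene Bhlhe40, at 40.2 and 57.4 FPKM, were higher. In all, 3 of the 20 were lower and 2 higher past 1.25-fold, against 13.1% and 11.7% of all listed genes. The targets thus had no common direction, with 13 of 20 above 0 on the log2 scale.

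Among 18 related ligands and their antagonists, with a median of 0.18 over the 17 above the floor, the single gene past 2-fold was Gdf15, a stress-induced ligand, named after its values were seen. It was higher, from 0.165 to 0.720 FPKM, on about 3 and 13 reads, so that its ratio of 4.35 had an interval from 1.04 to 20.6. The most abundant gene of the list within 2-fold was Fstl1, at 363 and 340 FPKM. Past 1.25-fold, and named after their values were seen, were the growth factor genes Inhbb (19.3 and 24.7 FPKM), Bmp4 (11.9 and 15.4 FPKM), Bmp7 (19.8 and 27.3 FPKM) and Gdf10 (10.8 and 13.9 FPKM) and the antagonist gene Chrd (1.90 and 2.64 FPKM), all higher in PU.1−/−. With Gdf15, 6 of the 18 were higher and 0 lower past 1.25-fold, against 11.7% and 13.1% of all listed genes. Nodal was at 0.0383 FPKM in WT, about 1 read, and listed at 0 in PU.1−/−.

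**Figure D5:**
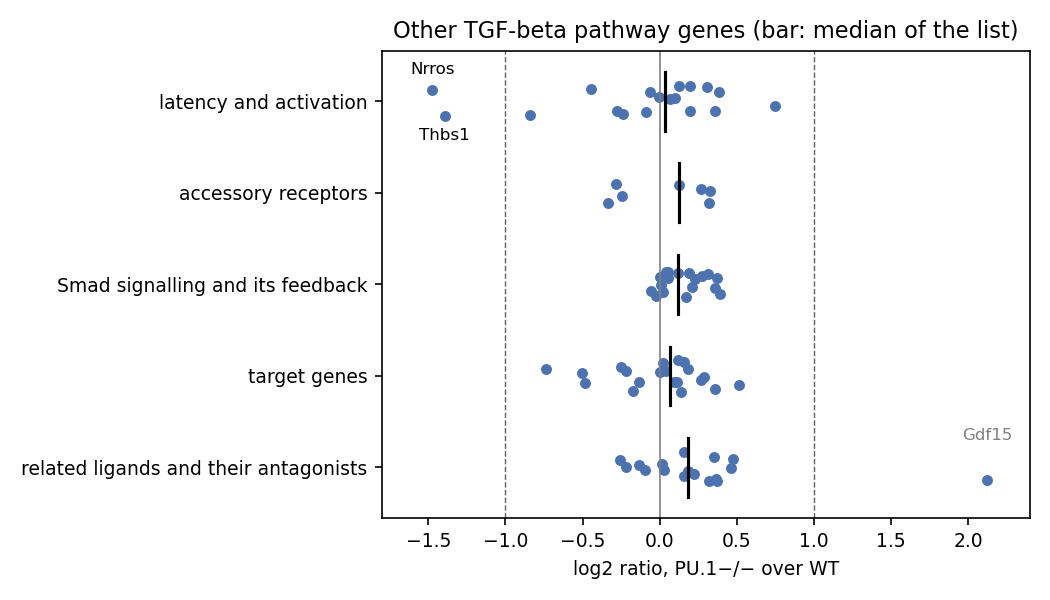
Log2 ratio of PU.1−/− over WT for the other pathway genes that reached 0.1 FPKM in at least 1 library, 1 point per gene and a bar at the median of each list, with dashed lines at 2-fold. Nrros and Thbs1 lie past 2-fold on the lower side, and Gdf15, at about 3 and 13 reads, on the higher side.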

How the data were processed

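Stranded mRNA libraries of homogenised wound tissue were sequenced by the authors from 1 end (75 bases), called in CASAVA 1.8.2 and mapped to mm10. The deposited FPKM values came from Cuffnorm 2.2.1 by the methods, and the submitters' processing notes name TopHat2 2.1.1, Bowtie2 2.2.8, SAMtools 0.1.18 and Cuffdiff 2.2.1. Their annotation is not given in the sources used here.

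FPKM values below 0.1 were raised to 0.1 before each gene's ratio was formed, and a gene was counted past a ratio of 2. Low values moved in steps, so depth was estimated from the value of 1 read in genes with 1 transcript length of at least 1000 nt (GENCODE lengths of RefSeq-linked transcripts, less 200 nt). This gave 13780000 fragments for WT and 15840000 for PU.1−/−. Among genes of up to 5 reads, 78.7% of 1197 and 79.6% of 1163 values were whole within 0.1 read. A member's reads were estimated from its shortest transcript, which gives the wider 95% interval. The FPKM sums were 709528 and 687304, and the median log2 ratio was −0.01 over 6538 genes with at least 10 FPKM in both.

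With 1 library per genotype no test was made. Functions were tested on simulated data. The members, pathway lists and marker lists were chosen with earlier results of these data known. Outside the 10 genes and Spi1, genes past 2-fold with at least 1 FPKM in the higher library, or else the most abundant of a list, were named, and for marker lists the genes listed at 0; sex-linked genes and Ppbp were named as checks, and any other name was picked with its values in view. The alternatives changed the floor, the pseudocount, the scaling, the filter and the fold. Gene positions and start regions are from RefSeq on GRCm38.p6. Tools were matplotlib 3.10.9, scipy 1.17.1, pandas 2.3.3 and numpy 2.4.6 under Python 3.11.15.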

Additional observations from a re-analysis of the deposited data

How the results depend on the processing

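The log2 ratios of the 10 genes kept their sign under all 6 alternatives of floor, pseudocount, scaling and filter. The floors and the filter could not change any of them, since each member had at least 1 FPKM in both libraries. Of 60 such values, those fixed ones included, 59 stayed within the counting interval, the exception being Ltbp2 at −0.96 with a pseudocount of 1 FPKM. No member was then past 2-fold (0 lower). A fold of 3 also left 0 members lower, and the share of all listed genes past that fold was not computed. A fold of 1.25, chosen after seeing the data, gave 2 lower and 6 higher, against 13.1% and 11.7% of all listed genes. Of the 82 other pathway genes, a fold of 1.5 gave 4 lower and 2 higher (7.67% and 5.79% of all listed genes). For the same 82, a fold of 1.25 gave 8 lower and 16 higher (13.1% and 11.7%), and a fold of 3 gave 0 lower and 1 higher, Gdf15. A floor of 0.01 FPKM gave 3 lower, the added gene being Nodal, on about 1 read in WT and 0 in PU.1−/−. A floor of 1 FPKM, a pseudocount of 1 FPKM and the filter at 1 FPKM each gave 0 higher, since Gdf15 lies below 1 FPKM. Rescaling to equal FPKM sums added 0.05 to each log2 ratio, and rescaling to a median ratio of 1 added 0.01. No paired analysis was possible because each genotype has 1 library. Of the ratio intervals given in the report, those of Tgfb2, Itgb6 and Cnn1 held 1, and the spread between pups is unknown.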
